A study of Mus musculus with 12 samples.

Results

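The growth factors and chemokines that support spermatogonia in the testis were followed in Mael+/- and Mael-/- mice. The set was fixed by name and held 8 of the 20620 genes counted: Kitl, Gdnf, Fgf2, Cxcl12, Csf1, Bmp4, Igf1 and Nrg1. Testes of C57BL/6 mice at postnatal day 16 were compared between Mael-/- animals and Mael+/- controls, so the controls also carried the mutant allele on a single chromosome. Both genotypes were lysed with cycloheximide at 200 µg per ml, which holds ribosomes on mRNA, and each extract gave a total RNA library and a library of ribosome footprints, the short mRNA fragments that ribosomes protect from nuclease. With 3 extracts a genotype and 2 assays there were 4 groups of 3 libraries, 12 in all. Mael encodes Maelstrom, a germ cell protein of the piRNA pathway, and the samples were extracts of whole testis, in which fewer cells of a type and less RNA per cell cannot be told apart. The labels do not say whether an extract held the testes of 1 animal or of several, and the p-values measure only the spread between these extracts, which may be technical.

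Spermatogonial stem cells and their first descendants divide or differentiate on cues from the somatic cells around them. Kitl (stem cell factor) and Gdnf are made by Sertoli cells and act on the receptors Kit and Gfra1 with Ret, for differentiating and undifferentiated spermatogonia respectively. Fgf2 acts on Fgfr receptors, Cxcl12 on Cxcr4 and Ackr3, Bmp4 on Bmpr1a, Bmpr1b and Bmpr2, and Nrg1 on the Erbb receptors. Csf1 maintains macrophages through Csf1r and has also been described as a niche factor, and Igf1, a product of Leydig and peritubular cells among others, acts on Igf1r.

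The stretches from which reads could be counted differed widely among the 8 genes. RNA reads were counted over whole mRNAs and footprints over the coding sequence, and on GRCm38.p6 (the build also named mm10) the RefSeq annotation gave Cxcl12 (chr6:117168535-117181368, plus strand) 7161 bases of mRNA when the exons of its 3 curated transcripts were merged, of which 380 bases or 5.3% were coding. Igf1 (chr10:87858265-87937047, plus strand) had 8149 bases with 6.5% coding, Kitl (chr10:100015615-100100416, plus strand) 5457 bases with 15.1% coding, and Gdnf (chr15:7810048-7837580, plus strand) 4867 bases with 15.6% coding. These 4 shares lay at or below percentile 2.5 of all genes with lengths, whose median was 57.7%. Nrg1 (chr8:31807452-32891609, minus strand) had 35.3% coding, Csf1 (chr3:107741048-107760469, minus strand) 37.5%, Bmp4 (chr14:46383525-46390669, minus strand) 59.6% and Fgf2 (chr3:37348477-37410106, plus strand) 66.9%. The RefSeq entry of Fgf2 was a single transcript of 695 bases, whereas GENCODE M21 gave that gene 6525 bases, so each value of Fgf2 per length of mRNA depended on the annotation. Exons of Bmp4 overlapped those of Gm15217 on the opposite strand, and whether the counting used strand is not given in the sources used here.

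A pair of sequences is shown because they mark what the counts can and cannot see. The shortest curated coding sequence of Cxcl12, 270 bases in 3 coding exons (chr6:117168656-117168716, chr6:117171482-117171599 and chr6:117173492-117173582, plus strand), is most of the 380 coding bases that RefSeq gives the gene. Its start and stop codons are in capitals. The second is coding exon 6 of the 9 coding exons of Kitl (chr10:100080857-100080940, plus strand), 84 bases that are in the transcript with 822 coding bases and absent from the one with 738. The exon carries the site at which membrane-bound stem cell factor is cleaved to the soluble form. Counts per gene summed both Kitl forms, so the values below do not separate them.
Cxcl12 coding sequence: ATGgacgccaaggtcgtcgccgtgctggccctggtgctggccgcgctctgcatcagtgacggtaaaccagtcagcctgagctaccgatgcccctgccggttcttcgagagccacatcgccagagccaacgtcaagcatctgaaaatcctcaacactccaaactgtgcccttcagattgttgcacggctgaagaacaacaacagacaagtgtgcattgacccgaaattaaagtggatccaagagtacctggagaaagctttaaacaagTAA
Kitl coding exon 6: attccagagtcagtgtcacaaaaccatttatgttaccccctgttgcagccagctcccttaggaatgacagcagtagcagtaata

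Gene counts summed to between 13697267 and 27462358 per RNA library and between 7609932 and 13233565 per footprint library. Mael itself had 3800 to 5045 counts in the Mael+/- RNA libraries and 0 to 2 in those of Mael-/-, and 660 to 1294 against 0 to 7 in footprints, as the labels give the genotypes. All 7 genes that define testis (the Sertoli genes Sox9 and Clu, the Leydig genes Cyp17a1 and Star, the germ cell genes Ddx4, Dazl and Sycp3) were counted. The first Mael+/- extract stood apart in its germ cells: the median of the pachytene spermatocyte markers lay 1.41 above the mean of the 6 libraries on the log2 scale in RNA and 1.18 above in footprints, against -0.46 to 0.03 in the other 10 libraries. The median of the 8 niche factors in that extract lay -0.06 and -0.13 from the same means.

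All 8 factors were detected in each of the 12 libraries, at depths that set how well each could be measured. Kitl gave the most counts, 3358 to 7866 per RNA library and 550 to 969 per footprint library. Nrg1 gave the fewest, 9 to 46 and 12 to 33. Between these, Igf1 had 1399 to 3263 RNA counts, Cxcl12 714 to 1561, Csf1 409 to 740, Gdnf 179 to 475, Bmp4 78 to 226 and Fgf2 30 to 89. Over the 6 RNA libraries Cxcl12 varied least, with an SD of 7.97% of its mean, and Nrg1 most, with 31.7%. Counting error alone would give an SD of 2.93% for Cxcl12 and 20.6% for Nrg1. In footprints the spreads of Gdnf (14.4%) and Fgf2 (15.8%) were no wider than counting error (15.4% and 17.9%), so no spread between extracts was detectable for those genes at that depth.

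Per kilobase of mRNA the level of RNA fell in the order Kitl, Igf1, Cxcl12, Csf1, Fgf2, Bmp4, Gdnf and Nrg1. Kitl stood at 44.2 ± 6.23 CPM (counts in per-million form, over the TMM-scaled library size) per kb (SD over the 6 RNA libraries of both genotypes), at percentile 86.0 of all genes tested. Igf1 followed at 13.0 ± 2.51, Cxcl12 at 7.51 ± 0.599 and Csf1 at 5.40 ± 0.954 CPM per kb. Each of the first 3 was above its successor in all 6 libraries, with ranges that did not overlap. Fgf2 (3.24 ± 0.8565), Bmp4 (3.24 ± 0.599) and Gdnf (2.86 ± 0.478 CPM per kb) did not differ beyond their spread, nor did Csf1 and Fgf2. Nrg1, a growth factor with many transcripts from a long gene, was lowest at 0.158 ± 0.05002 CPM per kb, at percentile 2.0, and below Gdnf in every library. With the GENCODE length Fgf2 came to 0.345 ± 0.0912 CPM per kb, next above Nrg1 and below Gdnf, and its place in the order is therefore not settled. With those lengths the ranges of Igf1 and Cxcl12 also overlapped.

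In footprints per kilobase of coding sequence the leading gene was Cxcl12, at 126.2 ± 17.3 CPM per kb. Kitl (93.5 ± 14.55) and Igf1 (88.1 ± 10.2) came next, and these 3 genes lay at percentiles 91.6, 87.3 and 86.2 of all genes tested. Cxcl12 was above Kitl in 6 of 6 libraries although the ranges overlapped, and Kitl was above Igf1 in 5 of 6. Csf1 stood apart from them and from the rest at 13.99 ± 2.57 CPM per kb. Fgf2 (7.12 ± 1.12), Gdnf (5.89 ± 0.845) and Bmp4 (4.19 ± 0.831) formed a run whose neighbours overlapped, and Nrg1 was again lowest, at 0.667 ± 0.254 CPM per kb. Cxcl12 thus moved from the third place in RNA to the first in footprints, per length of the part that was counted.

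**Figure D1:**
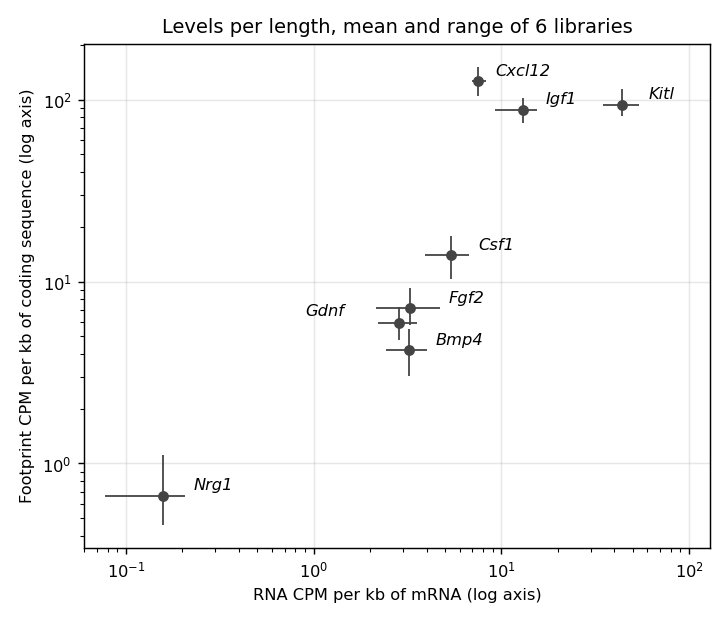
Mean level of each factor as RNA CPM per kb of mRNA (horizontal log axis) and footprint CPM per kb of coding sequence (vertical log axis), with RefSeq lengths; lines span the lowest to the highest of 6 libraries of both genotypes. Cxcl12, Igf1 and Kitl lie at the top with footprint means of 126.2, 88.1 and 93.5, and Nrg1 lies at the bottom left at 0.158 and 0.667.

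Between genotypes the factors with the most reads held nearly the same RNA level. Kitl was at 238.9, 190.1 and 297.1 CPM in the 3 Mael+/- extracts and at 244.4, 239.1 and 236.5 CPM in the 3 Mael-/- extracts. The Mael-/- libraries lay close together inside the wider Mael+/- range. The log2 fold change of Mael-/- over Mael+/- was -0.01 ± 0.14 (SE), with a 95% interval of 0.7985-fold to 1.23-fold. Cxcl12 was at 51.4, 51.1 and 59.0 CPM against 52.0, 59.5 and 49.7 CPM, with overlapping ranges and an interval of 0.847-fold to 1.17-fold, the narrowest of the 8. Igf1 was at 125.8, 75.7 and 123.2 CPM against 101.8, 120.1 and 89.6 CPM. Here the second Mael+/- extract was the lowest of all 6, and the interval ran from 0.721-fold to 1.28-fold. For these 3 factors an RNA change of 1.5-fold in either direction lay outside the interval.

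Gdnf, which keeps spermatogonial stem cells undifferentiated, was at 10.7, 17.4 and 15.4 CPM in Mael+/- RNA and at 13.0, 12.7 and 14.3 CPM in Mael-/- RNA. The lowest and the highest values were both from controls, and the log2 fold change was -0.11 ± 0.18. Bmp4, a TGF-beta family ligand that acts on differentiating spermatogonia, was at 4.98, 6.40 and 6.99 CPM against 5.68, 7.73 and 8.24 CPM. The log2 fold change was 0.24 ± 0.20, with ranges that overlapped. Fgf2, a heparin-binding mitogen used to culture spermatogonial stem cells, was at 1.95, 3.26 and 2.49 CPM against 2.26, 1.49 and 2.08 CPM. Its log2 fold change of -0.41 ± 0.27 was the farthest from 0 among the 8 in RNA, and its interval ran from 0.491-fold to 1.15-fold (unadjusted p = 0.164, edgeR). Nrg1 was at 1.21, 1.10 and 1.74 CPM against 0.655, 1.69 and 1.604 CPM. The first Mael-/- library, with 9 reads, was the lowest. The interval ran from 0.580-fold to 1.74-fold, so changes within that range were not excluded.

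Csf1 was the factor with the smallest p in both assays. In RNA it was at 23.1, 17.4 and 23.4 CPM in Mael+/- and at 29.8, 22.6 and 27.0 CPM in Mael-/-. In footprints it was at 20.8, 17.1 and 24.1 CPM against 29.6, 22.4 and 25.4 CPM. In each assay the lowest Mael-/- library lay below the highest Mael+/- library, so the ranges overlapped, and the second extract was the lowest of its genotype in both genotypes and both assays. The log2 fold change was 0.31 ± 0.15 in RNA (unadjusted p = 0.0673, adjusted p = 0.938) and 0.32 ± 0.16 in footprints (unadjusted p = 0.0699, adjusted p = 0.999; edgeR's quasi-likelihood test with Benjamini-Hochberg adjustment over all genes). Neither passed the threshold. RNA and footprints came from the same extracts, so the pair of values is not independent evidence.

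No factor passed the threshold of an adjusted p under 0.05 in RNA, where 17 of 14685 genes did (0.116%), or in footprints, where 8 of 13500 did (0.0593%). None reached an unadjusted p under 0.05 either, which 5.4% of genes reached in RNA and 4.33% in footprints. DESeq2 also called none of the 8. The ranges of the genotypes overlapped for each of the 8 in both assays, while 10.3% of all genes in RNA and 9.09% in footprints had ranges that did not overlap. For a set of 8 genes a count of 0 is close to such shares, and nothing particular to the set is read from it. The median log2 fold change of the 8 was -0.01 in RNA and 0.06 in footprints, beside -0.00 and -0.01 over all genes tested. A 2-fold difference in either direction was outside the 95% interval for 7 of the 8 factors in RNA, the exception being Fgf2, and for all 8 in footprints.

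**Figure D2:**
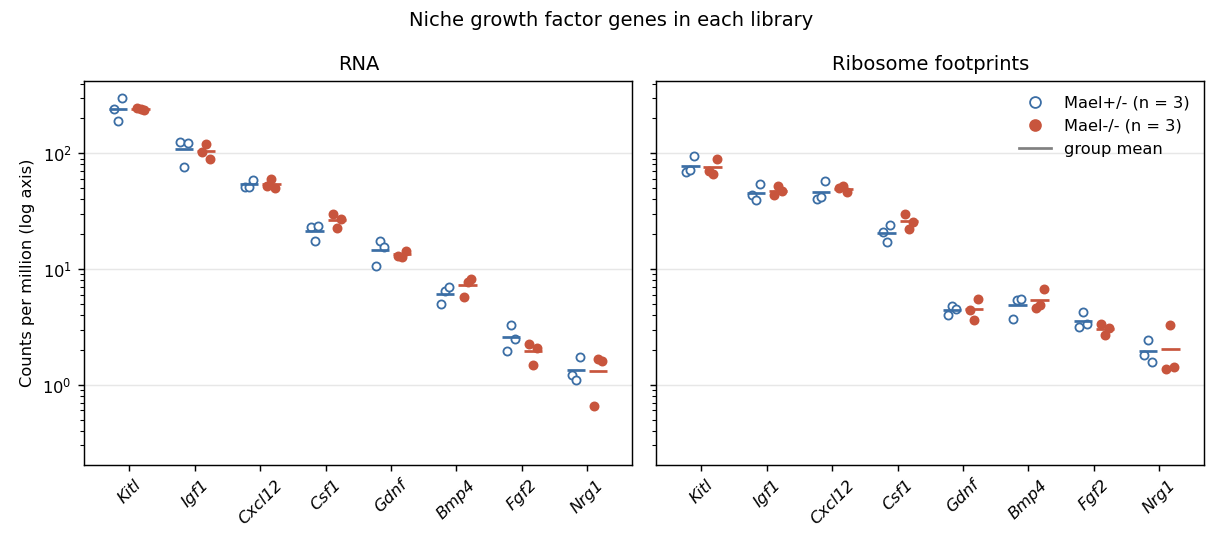
CPM of each factor (log axis) in the 3 Mael+/- libraries (open circles) and the 3 Mael-/- libraries (filled circles) of RNA and of ribosome footprints, with group means as bars. Heights are not per length and serve to compare genotypes within a gene; the ranges of the genotypes overlap for every factor, and the lowest point is Nrg1 at 0.655 CPM in the first Mael-/- RNA library.

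Footprints of the other factors showed the same small differences. Kitl was at 69.0, 71.1 and 94.5 CPM in Mael+/- and at 70.4, 66.6 and 89.6 CPM in Mael-/-, the third extract being the highest in each genotype. Cxcl12 was at 40.0, 42.0 and 57.5 CPM against 49.9, 52.4 and 46.0 CPM, and Igf1 at 43.9, 39.5 and 53.7 CPM against 43.5, 51.7 and 47.2 CPM. For both, the Mael-/- values lay inside the Mael+/- range. Gdnf ranged from 3.59 to 5.46 CPM over the 6 libraries, Bmp4 from 3.71 to 6.76, Fgf2 from 2.69 to 4.27 and Nrg1 from 1.36 to 3.29. The log2 fold changes of these 7 factors ran from -0.23 ± 0.24 for Fgf2 to 0.14 ± 0.24 for Bmp4. Each was smaller than its SE.

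A change in translation would appear as a footprint change beyond the RNA change, and this was tested as a genotype by assay interaction term fitted to the 12 libraries. None of the 8 factors was called, and no gene of 13448 was (0.0%). At an unadjusted p under 0.05 there were 54 genes (0.402%), none of them a niche factor. That share is far below the 0.05 that a calibrated test gives in the absence of any change, so this fit was conservative. The interaction ranged from -0.10 ± 0.32 for Bmp4 to 0.19 ± 0.35 for Fgf2 on the log2 scale, with a median of 0.07 over the 8. For Cxcl12, the best measured, the interval ran from 0.8115-fold to 1.398-fold. For Nrg1 it ran from 0.4505-fold to 2.40-fold, the widest of the 8. That fit does not use the pairing of RNA and footprints by extract. With the extract as a block, the SEs of the factors were 0.111 to 0.418 instead of 0.183 to 0.563. The intervals of all 8 factors then lay between -0.748 and 0.985 on the log2 scale, so a 2-fold change lay outside each of them.

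**Figure D3:**
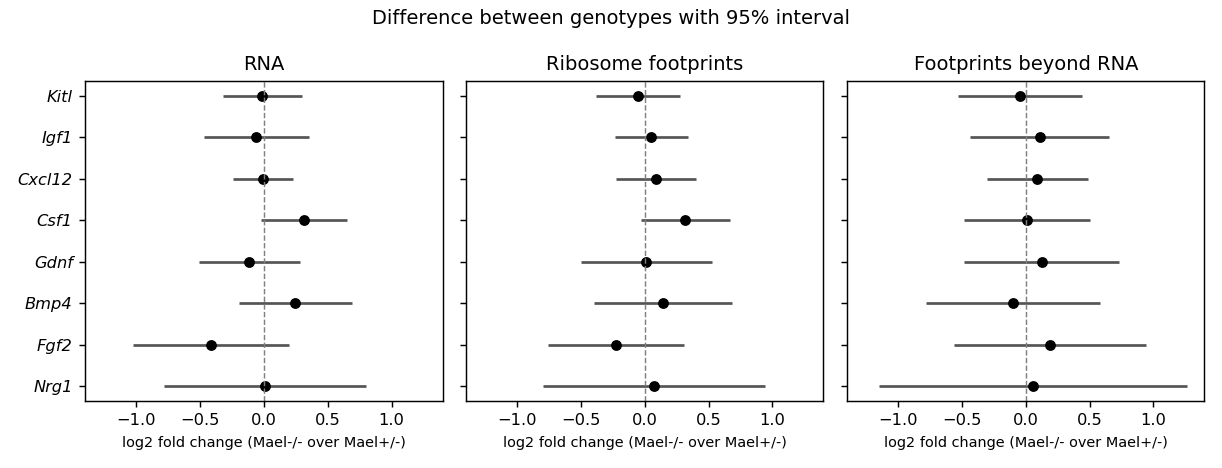
Log2 fold change of Mael-/- over Mael+/- (points) with its 95% interval (lines) for each factor in RNA, in ribosome footprints, and for footprints beyond RNA. Values for footprints beyond RNA are from the fit without the extract as a block. Every interval includes 0; those of Csf1 reach least below it, to -0.03 in RNA and -0.03 in footprints, and those of Nrg1 are the widest.

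The factors differed from each other in footprints per RNA far more than the genotypes did. The ratio of footprint CPM to RNA CPM was taken within each extract. For Kitl it was 0.289, 0.374 and 0.318 in Mael+/- and 0.288, 0.278 and 0.379 in Mael-/-, a mean of 0.321 ± 0.04495 (SD, 6 extracts) at percentile 3.5 of 13394 genes. For Gdnf it was 0.378, 0.275 and 0.292 against 0.337, 0.282 and 0.381, a mean of 0.324 ± 0.0479 at percentile 3.6. In every extract both of these Sertoli cell ligands lay below the lower quartile of the mean ratios of all genes, 0.684. Igf1 averaged 0.448 ± 0.0667, Bmp4 0.774 ± 0.0778, Cxcl12 0.890 ± 0.0785 and Csf1 0.972 ± 0.0459, the last near the median of all genes, 0.954. Fgf2 at 1.51 ± 0.1895 and Nrg1 at 1.59 ± 0.596 were above it. The ratio of Nrg1 ranged from 0.887 to 2.24 on counts of 9 to 46.

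RNA reads were counted over the whole mRNA and footprints over the coding part, so the coding share can enter a ratio of this kind. Across the 13394 genes the ratio and the coding share had a Spearman correlation of 0.428, as a description over genes that share the libraries. Each factor was therefore set beside the genes of its own class of coding share, in steps of 5 percentage points. Kitl and Gdnf fell into the class from 15 to 20% coding, whose 499 genes had a median ratio of 0.5895. They came to 0.545 and 0.550 of that median, at percentiles 13.6 and 14.2 of the class. Igf1 was close to the median of the 82 genes with 5 to 10% coding, 0.416, at percentile 52.4. Cxcl12 in that class was at 2.14 times the median, at percentile 89.0. Cxcl12 and Igf1, the factors with the smallest coding share, thus stood apart from each other by more than the spread over extracts, since the lowest Cxcl12 ratio, 0.777, was above the highest Igf1 ratio, 0.527.

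Csf1 and Bmp4 lay nearer to the middle of their classes, at percentiles 63.9 and 25.4, and Nrg1 at percentile 91.2. Fgf2 was at percentile 81.1 of its RefSeq class. With GENCODE lengths, an alternative added after the values were seen, Kitl and Gdnf were at percentiles 19.2 and 11.1 of their classes and Cxcl12 at 80.0. Igf1 was at 37.9 and Fgf2, now with 7.83% coding, at 93.6. Expressed per kb of coding sequence over per kb of mRNA, the ratio was 16.8 ± 1.48 for Cxcl12, at percentile 99.6 of all genes, and 6.91 ± 1.03 for Igf1, at percentile 97.3. The median of all genes was 1.84, but that of the 854 genes under 20% coding was 3.64, so the per-length form lifts genes with long noncoding parts. On that scale Kitl (2.13 ± 0.298) and Gdnf (2.08 ± 0.308) were close to the median of all genes, at percentiles 61.5 and 59.9. With GENCODE lengths Kitl came to 2.21 at percentile 59.7 and Gdnf to 1.65 at percentile 37.0. Their low place is thus a statement about the plain ratio and about genes of like coding share, not about the per-length ratio.

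**Figure D4:**
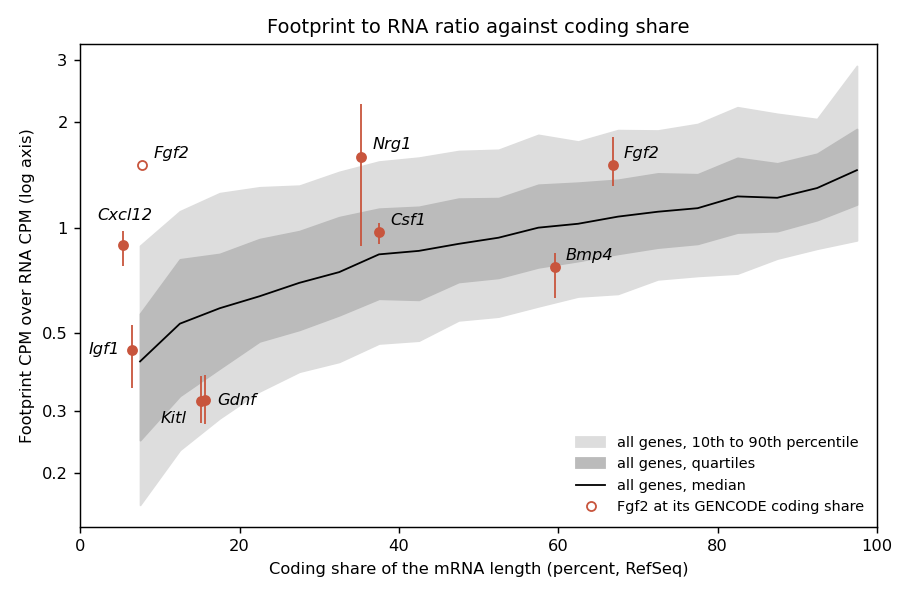
Footprint CPM over RNA CPM (log axis) against the coding share of the mRNA for the 8 factors (points, mean of 6 extracts; lines, lowest to highest extract), over the median, quartiles and 10th to 90th percentiles of all genes in classes of 5 percentage points with at least 20 genes. Kitl at 0.321 and Gdnf at 0.324 lie below the quartile band, and Cxcl12 at 0.890 lies far above the median of genes with like coding share, 0.416; the open point is Fgf2 at its GENCODE coding share of 7.8%.

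The receptors of the 8 factors were all measured, 18 of 18 genes in both assays, and none was called in any of the 3 comparisons. The median log2 fold change was 0.07 in RNA and 0.09 in footprints, and the largest in footprints was 0.55 ± 0.36 for Bmpr1b. Kit, the Kitl receptor of differentiating spermatogonia, was at 116.9 ± 12.9 CPM in Mael+/- RNA and 103.1 ± 7.70 in Mael-/- RNA (SD, n = 3 each), a log2 fold change of -0.18 ± 0.10. The Gdnf receptor pair was flat by comparison, at 0.06 ± 0.12 for Gfra1 and -0.00 ± 0.12 for Ret. Cxcr4, the Cxcl12 receptor, was alone among the receptors in passing an unadjusted threshold of 0.05 (0.34 ± 0.15 in RNA, unadjusted p = 0.0440, adjusted p = 0.919, edgeR), and in footprints it stood at 0.14 ± 0.13. Of all genes tested 5.4% passed that threshold in RNA, a share to which 1 of 18 receptors is close. In RNA Fgfr1 was at 0.08 ± 0.10, Bmpr1a at -0.08 ± 0.10, Bmpr2 at -0.06 ± 0.15 and Igf1r at -0.02 ± 0.11. The Nrg1 receptors were at -0.16 ± 0.11 for Erbb2, -0.27 ± 0.20 for Erbb3 and 0.09 ± 0.18 for Erbb4.

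Csf1r, the Csf1 receptor and itself a macrophage marker, was the receptor with the largest RNA value. It was at 29.8, 23.8 and 39.3 CPM in Mael+/- and at 40.7, 40.1 and 37.7 CPM in Mael-/-, overlapping, with a log2 fold change of 0.35 ± 0.16 in RNA and 0.40 ± 0.19 in footprints (unadjusted p = 0.0565 and 0.0589, edgeR). All 9 macrophage markers were above 0 in both assays, with medians of 0.33 and 0.27, and none was called. Their summed RNA level ran from 177.8 to 295.5 CPM in Mael+/- and from 279.2 to 282.1 CPM in Mael-/-, and the largest RNA value was 0.44 ± 0.22 for Emr1, the older symbol of Adgre1. The peritubular myoid markers were above 0 for 6 of 7 genes in each assay, with medians of 0.20 and 0.24 and Actg2 the largest in both (0.41 ± 0.14 in RNA). Ptch1 of the myoid list lay below 0 in both assays (-0.07 in RNA and -0.01 in footprints), and no gene of that list was called. An unadjusted p under 0.05 (edgeR) was reached in RNA by 2 of the 7 myoid, 1 of the 9 macrophage and 0 of the 7 endothelial markers. Of all genes tested 5.4% reached it in RNA, and in footprints 0 genes of these lists did. Endothelial markers were likewise above 0 for 7 of 7 genes in RNA and 6 of 7 in footprints, so a shared sign was not particular to macrophage and myoid markers. Most genes of these lists thus had values of the same sign as Csf1, and their part in the Csf1 values was not tested.

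None of the lists of related ligands, modulators and targets held a called gene. Of 24 other niche ligands 21 were tested in RNA, with 8 above and 13 below 0, a median of -0.08, and Artn, a ligand of the Gdnf family, the largest at -0.64 ± 0.34. In footprints 15 were tested, with a median of -0.09 and Bmp2 the largest at -0.47 ± 0.52. Of 17 secreted or intracellular modulators 15 were tested in each assay. Igfbp3, which binds Igf1 in the extracellular space, had the largest value in both, 0.48 ± 0.17 in RNA (unadjusted p = 0.0179, adjusted p = 0.852) and 0.59 ± 0.22 in footprints (unadjusted p = 0.0226, adjusted p = 0.999). Of 13 genes that respond to these factors in spermatogonia 12 were tested, with medians of 0.01 and -0.05. Sohlh2 had the largest value in RNA, -0.19 ± 0.10, and Pou3f1 in footprints, -0.35 ± 0.23. In footprints Sohlh2 was at -0.28 ± 0.11 (unadjusted p = 0.0311, adjusted p = 0.999, edgeR). It was the 1 gene of these 12 with an unadjusted p under 0.05 there, beside 4.33% of all genes tested.

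Markers of the other cell types held no called gene either. Sertoli cell markers had medians of 0.01 in RNA and 0.03 in footprints, with Tsx the largest in both (0.40 ± 0.19 and 0.47 ± 0.20), and their summed RNA level ran from 7122 to 8004 CPM in Mael+/- and from 7324 to 7935 CPM in Mael-/-. Leydig cell markers had medians of 0.02 in both assays, with Insl3 the largest in RNA (0.78 ± 0.28) and Star in footprints (-0.27 ± 0.41). Insl3 rested on 25 to 89 RNA counts per library, and its footprint value was 0.25 ± 0.24. Endothelial markers had medians of 0.14 and 0.07, with Emcn (0.23 ± 0.28) and Tie1 (0.36 ± 0.21) the largest. Spermatogonia markers had medians of -0.00 and -0.03, with Nanos2 (0.65 ± 0.43) and Id4 (-0.27 ± 0.16) the largest. Nanos2 rested on only 5 to 20 RNA counts per library. Early meiotic markers had medians of -0.22 and -0.30, with Sycp2 (-0.71 ± 0.33) and Sycp3 (-0.77 ± 0.35) the largest. These negative medians rested on the first Mael+/- extract: relative to the mean of the 6 libraries of the assay, the median of the list in RNA was 0.68 in that extract, -0.21 and -0.25 in the other Mael+/- extracts and -0.01, 0.15 and -0.20 in Mael-/-. In footprints it was 0.84, then -0.15 and -0.22, and -0.13, 0.07 and -0.20 in Mael-/-. Of 15 pachytene markers 11 were tested in RNA and 9 in footprints, with 1 gene above 0 in each assay. Their medians were -1.08 and -0.78, with Spag6 (-3.81 ± 0.91) and Ldhc (-3.16 ± 0.86) the largest. Relative to the mean of the 6 RNA libraries, the pachytene median was 1.41 in the first Mael+/- extract, -0.22 and 0.01 in the other Mael+/- extracts and -0.34 to -0.46 in Mael-/-.

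**Figure D5:**
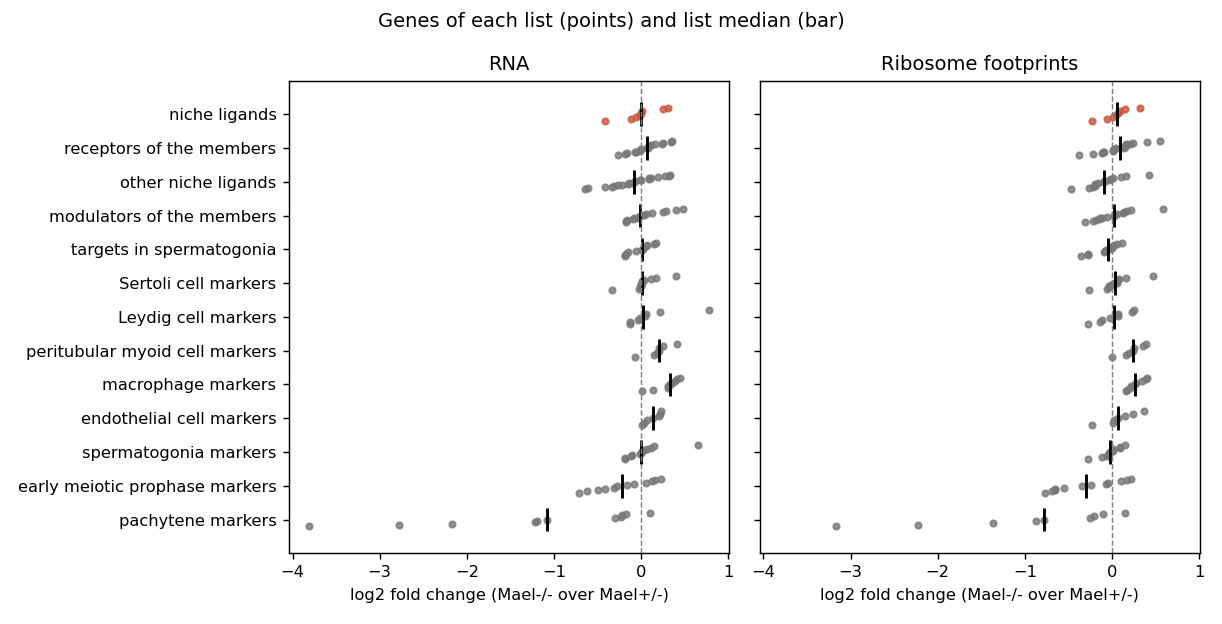
Log2 fold change of Mael-/- over Mael+/- for each gene of each list (points) and the median of the list (bars), in RNA and in ribosome footprints. The 8 niche ligands lie between -0.41 and 0.32; the macrophage markers are all above 0, and the pachytene markers reach to -3.81 in RNA.

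Without the first Mael+/- extract the 8 factors were again not called. The RNA log2 fold change of Csf1 was then 0.37 (unadjusted p = 0.0225, edgeR, adjusted p = 0.624), that of Fgf2 -0.58 (unadjusted p = 0.0435, adjusted p = 0.761) and that of Gdnf -0.29 (unadjusted p = 0.0412, adjusted p = 0.755). Over all genes, 953 of 14876 had an unadjusted p under 0.05 in that fit, beside 793 of 14685 with every library in. The other 5 factors ran from -0.04 to 0.13 in RNA. In footprints, where that extract's library was left out, the 8 ran from -0.30 for Fgf2 to 0.32 for Csf1. Without the second Mael+/- extract the Gdnf value in RNA was 0.04 and that of Csf1 0.18.

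The genes whose RNA level followed each factor most closely were read off as the 2 highest Pearson correlations of log2 CPM over the 6 RNA libraries, out of the 12681 genes whose counts averaged 50 or more. With so many genes and 6 points, values near 1 arise for any gene, and they are given as a description. Kitl was followed by Akap7 (r = 0.990) and Prlr, the prolactin receptor (0.979). Over the footprint libraries of the same extracts these correlations were 0.31 and 0.853. Csf1 was followed by Slc41a2 (0.994, and 0.942 in footprints) and Tmem189 (0.993 and 0.771), and Igf1 by Zfp763 (0.992 and 0.769) and Arxes2 (0.986 and 0.842). For Gdnf the nearest were Nipa1 and Acot11, for Fgf2 Ccnl2 and Sox13, for Cxcl12 D730048I06Rik and Zfp260, and for Bmp4 Rab5c and Litaf, with r between 0.956 and 0.997 (RNA) and between 0.14 and 0.662 (footprints). Nrg1 had too few counts for this comparison.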

How the data were processed

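Testis RNA and ribosome footprints were sequenced from aliquots of the same extracts. Per the methods, the authors removed ribosomal RNA reads with Bowtie 1.2.2, aligned to mm10 with STAR 2.6.0c and counted with featureCounts (Subread 1.6.4), taking RNA reads along the whole mRNA and footprints within the coding sequence only. The annotation, the strand setting and whether duplicates were collapsed are not given in the sources used here. The deposited counts of 20620 gene rows were used as they stand, and 5138235 repeat rows stayed out of library sizes. The authors' DESeq2 tables, which hold log2 fold changes and p-values, were not used.

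Genotypes were compared with edgeR 4.0.16 (quasi-likelihood test, TMM within assay, filterByExpr) in R 4.3.3, over all genes, with a Benjamini-Hochberg adjusted p under 0.05 as the call. All 8 factors passed the filters. Translation was the genotype by assay interaction over genes that passed in both assays. CPM used TMM library sizes, and SE is the log2 fold change over the root of F. The test was tried on simulated counts. Lengths merged the exons of RefSeq curated transcripts, available for 20408 of the gene rows. Sequences were read from RefSeq's GRCm38.p6 with samtools 1.23.1.

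The factors and all lists were chosen with earlier results of these data known. Named were the 8 factors, 12 of their receptors, the gene with the largest absolute log2 fold change in each list, every called gene of a list (there was none) and the 2 most similar genes per factor. Replicate numbers pair RNA with footprints of an extract (correlation of deviations over 11235 genes 0.668 to 0.806 in Mael+/- and 0.266 to 0.293 in Mael-/-). Alternatives were DESeq2 1.42.0, size factors by the median of ratios, other filters, replicate blocks and each library left out.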

Additional observations from a re-analysis of the deposited data

How the results depend on the processing

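Of 313 alternative log2 fold changes of the 8 factors, none reached an adjusted p under 0.05 (smallest 0.429). An unadjusted p under 0.05 was reached by 9, and 51 changed sign, and the cause was not tested. Over all genes, from 509 of 14900 to 1479 of 14796 were under 0.05 in the RNA alternatives. In those of footprints it was from 316 of 13649 to 1372 of 13645. Nothing particular to the 8 factors is read from the 9. Depth limits Nrg1 and Fgf2 most.

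Calls over all genes in RNA numbered 17, but 66 with DESeq2, 4 with a mean of at least 50 counts, 50 with the replicate block and 2 to 64 with a library left out (64 without Mael+/- replicate 1, 8 without Mael+/- replicate 3, and 2, 7 and 8 without Mael-/- replicates 1, 2 and 3). In footprints they numbered 8, but 26, 1, 23 and 2 to 17 under the same changes (17, 4 and 2 without Mael+/- replicates 1, 2 and 3, and 3, 3 and 4 without those of Mael-/-). Translation gave 0 calls under every alternative run, with 54 genes at an unadjusted p under 0.05 in the reported fit and 25 (mean of at least 50 counts) to 282 (extract block) in the alternatives. What extracts of equal number share across genotypes is not given in the sources used here. Their deviations correlated at -0.041 to 0.29 in RNA and 0.064 to 0.293 in footprints. The highest of these were as high as those between RNA and footprints in Mael-/- (0.266 to 0.293), but not every sample correlated best with its own number. With the replicate block the RNA value was 0.011 for Kitl and -0.041 for Nrg1, and in footprints -0.0011 for Nrg1. Csf1 then had an unadjusted p of 0.0206 in RNA and 0.0377 in footprints (edgeR). Under 0.05 in those fits were 1005 of 14685 genes in RNA and 756 of 13500 in footprints. With the extract as a replicate block in the translation fit no call changed, and SEs of the factors were 0.111 to 0.418 instead of 0.183 to 0.563. Nrg1 in RNA was -0.015 with DESeq2 and -0.0029 with no filter.

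With a library left out, RNA values ran from -0.16 to 0.16 for Kitl, -0.29 to 0.038 for Gdnf, -0.088 to 0.066 for Cxcl12, -0.26 to 0.061 for Igf1, -0.19 to 0.28 for Nrg1, -0.58 to -0.20 for Fgf2, 0.18 to 0.41 for Csf1 and 0.13 to 0.38 for Bmp4. Footprint values ran from -0.19 to 0.11 for Kitl, -0.14 to 0.14 for Gdnf, -0.017 to 0.27 for Cxcl12, -0.034 to 0.25 for Bmp4, -0.043 to 0.19 for Igf1, -0.46 to 0.32 for Nrg1, -0.31 to -0.093 for Fgf2 and 0.20 to 0.45 for Csf1. Translation values ran from -0.21 to 0.12 for Kitl, -0.028 to 0.30 for Gdnf, -0.02 to 0.35 for Fgf2, -0.011 to 0.28 for Cxcl12, -0.11 to 0.14 for Csf1, -0.28 to 0.019 for Bmp4, -0.013 to 0.31 for Igf1 and -0.47 to 0.31 for Nrg1. Without both libraries of the first Mael+/- extract, translation was -0.056 for Csf1 and -0.047 for Igf1.

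All 112 alternative levels and 56 alternative footprint to RNA ratios moved by less than 1 SD. Of 16 ratios per length under other lengths (added after the data were seen), 5 moved further, the farthest being Fgf2 at 19.2 with GENCODE lengths.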
